A study of Mus musculus with 14 samples.

Results

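Microglia, the resident macrophages of the brain, of TLR4-/- and wild-type (WT) mice were compared after an experimental stroke, across 19938 genes. The comparison rests on 7 of the 14 arrays of the series, 3 of TLR4-/- microglia (arrays B, C and D) and 4 of WT microglia (arrays A to D), all collected when 72 h had passed since the middle cerebral artery was blocked for 15 min. Arrays were placed by their genotype and treatment labels. Genes were the rows with 1 gene symbol, with the row of highest mean signal standing for a gene that had several. The treatment label reads ischaemia and reperfusion, written I/R here, while the titles of these samples read IPC, an abbreviation left unexpanded here because no label spells it out.

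All mice in the series were male, labelled C57BL/6J and 12 to 14 weeks old, and were operated on under isoflurane. Microglia were sorted from the cortex on the operated side, and their total RNA was hybridised to Affymetrix Mouse Gene 1.0 ST arrays. Sham-operated mice of both genotypes (4 WT arrays, 3 TLR4-/- arrays) gave the genotype difference without an occlusion, against which the difference after I/R was tested. The sources used here do not give how the Tlr4 allele was made, whether the genotypes were littermates or which markers guided the sort. No label states that every array was a different mouse. The p-values therefore reflect only the spread among these samples, and part of that spread may be technical.

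TLR4 is the receptor through which macrophages detect bacterial lipopolysaccharide, and it also responds to molecules released from damaged tissue. It signals through an adaptor pair, TIRAP and MyD88, to NF-kB and inflammatory cytokines, and through a second pair, TRAM and TRIF, to type I interferon, which in turn switches on a large set of antiviral genes. After a stroke, microglia near the lesion divide, release chemokines and clear debris, while monocytes enter from blood and macrophages of the meninges and vessel walls react beside them. The comparison of genotypes within the occluded mice asks what the microglial state looks like 72 h later when this receptor is missing.

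Several genes described below belong to programmes with known promoter elements, and 6 of their promoters are shown from the RefSeq table of GRCm38.p6, each 300 bases long and spanning the annotated start, with most of the window upstream of it. Ifit3 (chr19:34583279-34583578, plus strand), Rsad2 (chr12:26456403-26456702, minus strand) and Cxcl10 (chr5:92348840-92349139, minus strand) are interferon-induced genes. Their mean differences after I/R were positive, none passed the adjustment, and the arrays overlapped for Ifit3 and Rsad2. In their sequences capitals mark the core of the interferon-stimulated response element, GAAANNGAA on either strand, and in Cxcl10 also the NF-kB site GGGNNTTCC.

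Ifit3: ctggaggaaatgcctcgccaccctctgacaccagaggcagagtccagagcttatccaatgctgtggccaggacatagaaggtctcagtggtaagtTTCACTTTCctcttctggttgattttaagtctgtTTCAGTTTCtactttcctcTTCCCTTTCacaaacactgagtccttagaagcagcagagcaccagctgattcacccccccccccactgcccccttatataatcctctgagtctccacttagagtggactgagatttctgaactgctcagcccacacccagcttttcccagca

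Rsad2: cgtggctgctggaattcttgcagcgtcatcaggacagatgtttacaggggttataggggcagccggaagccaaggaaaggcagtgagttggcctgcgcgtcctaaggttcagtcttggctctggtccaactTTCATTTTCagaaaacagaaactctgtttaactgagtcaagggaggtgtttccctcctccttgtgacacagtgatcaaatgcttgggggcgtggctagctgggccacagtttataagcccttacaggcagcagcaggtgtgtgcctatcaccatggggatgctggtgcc

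Cxcl10: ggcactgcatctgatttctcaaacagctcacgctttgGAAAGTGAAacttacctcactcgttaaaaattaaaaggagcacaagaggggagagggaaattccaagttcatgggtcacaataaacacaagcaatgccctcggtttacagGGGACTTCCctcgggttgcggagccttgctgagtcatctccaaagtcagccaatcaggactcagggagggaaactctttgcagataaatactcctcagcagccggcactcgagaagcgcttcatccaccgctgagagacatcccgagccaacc

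Ttk (chr9:83834439-83834738, plus strand), Depdc1a (chr3:159495183-159495482, plus strand) and Mns1 (chr9:72438279-72438578, plus strand) had lower means in TLR4-/- microglia after I/R, with only Mns1 past the adjustment. Ttk and Depdc1a act in mitosis, and capitals mark TTTGAA, the cell cycle homology element of many mitotic promoters, and CCAAT, each on either strand. These last motifs were chosen after the values were seen.

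Ttk: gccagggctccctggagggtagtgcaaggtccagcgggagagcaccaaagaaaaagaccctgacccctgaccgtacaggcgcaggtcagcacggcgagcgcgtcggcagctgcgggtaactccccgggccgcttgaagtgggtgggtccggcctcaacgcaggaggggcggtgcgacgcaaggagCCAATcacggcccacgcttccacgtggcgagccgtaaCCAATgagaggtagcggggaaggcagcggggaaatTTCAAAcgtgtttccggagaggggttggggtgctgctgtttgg

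Depdc1a: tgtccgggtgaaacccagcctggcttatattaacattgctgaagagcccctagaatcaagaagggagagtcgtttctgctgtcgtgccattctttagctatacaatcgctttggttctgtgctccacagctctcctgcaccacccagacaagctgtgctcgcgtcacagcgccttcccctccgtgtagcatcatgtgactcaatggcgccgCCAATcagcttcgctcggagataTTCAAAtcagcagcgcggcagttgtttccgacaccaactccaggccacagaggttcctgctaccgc

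Mns1: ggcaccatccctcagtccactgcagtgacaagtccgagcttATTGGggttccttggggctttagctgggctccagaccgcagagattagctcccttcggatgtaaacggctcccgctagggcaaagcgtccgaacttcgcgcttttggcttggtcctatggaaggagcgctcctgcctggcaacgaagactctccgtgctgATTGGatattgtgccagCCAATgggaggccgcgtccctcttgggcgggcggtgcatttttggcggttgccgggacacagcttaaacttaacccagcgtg

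The element GAAANNGAA was present 3 times in the Ifit3 promoter and 1 time each in those of Rsad2 and Cxcl10. It was found in 22 of 42 promoters of the type I interferon-stimulated genes (20 of the 35 genes with an entry) and in 8.56% of all 32851 promoters of the table. TTTGAA was found in 18 of 24 promoters of the mitosis genes (17 of 23 genes) and in 17.9% of all promoters. CCAAT was found in 19 of these 24 and in 37.4% of all promoters, and the Mns1 promoter held it 3 times with no TTTGAA. GGGNNTTCC was found in 3 of 12 chemokine promoters and in 5.82% of all. A match describes these letters and is not evidence of binding.

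Signal is on the log2 scale, so a difference of 1 is a factor of 2, and values of different genes are not comparable as levels. The arrays give no detection call. Background was therefore gauged from 1027 olfactory receptor genes, whose expression in microglia is not known, and the 95th percentile of their mean signals was 4.67. A mean above this value was found for 12533 genes (62.86%). The sorted cells carried the signature of microglia in both genotypes. The mean of 19 homeostatic microglial genes ran from 10.56 to 10.79 in WT and from 10.57 to 10.70 in TLR4-/- microglia, and their median genotype difference was 0.01. Among markers of other cells, a mean above background was found for all 14 of border-associated macrophages, 12 of 17 of monocytes, 8 of 11 of oligodendrocytes, 6 of 11 of astrocytes, 6 of 12 of endothelial cells and pericytes, 5 of 15 of T and NK cells, 3 of 12 of neurons, 3 of 7 of B cells, 2 of 3 of erythroid cells and 2 of 14 of neutrophils.

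Across genes, TLR4-/- array D was closer to the WT I/R arrays (Pearson's r from 0.9901 to 0.9915) than to arrays B and C of its own genotype (0.9851 and 0.9898). Among themselves the WT I/R arrays had r from 0.9905 to 0.9934. Among the I/R arrays, WT array A had the highest mean of mitosis genes and the lowest of interferon-stimulated genes, as given with them. By Dixon's criterion, used further below, the list means that lay apart were those of WT array B.

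With limma's moderated test over all genes and Benjamini-Hochberg adjustment, 4 genes passed an adjusted p of 0.05 between the genotypes after I/R, which is 0.0201% of the genes tested. Phyhipl and Tnfsf4 rose in TLR4-/- microglia, and Mid1 and Mns1 fell. In sham-operated mice 1 gene passed (0.00502%), again Mid1. In bulk RNA a difference in the number of cells of a type and a difference in RNA per cell cannot be told apart, and this holds for every gene below.

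Phyhipl, a little-studied gene best known from brain, had a log2 signal of 4.22, 4.18, 4.43 and 4.35 on WT arrays A to D and of 5.45, 5.13 and 5.19 on TLR4-/- arrays B, C and D. Every TLR4-/- array was above every WT array. The means were 4.30 ± 0.12 (SD, n = 4) and 5.26 ± 0.17 (SD, n = 3), a 1.95-fold difference (log2 0.96, SE 0.13, limma adjusted p = 0.0179). The WT mean lies within the background range, so this fold is measured against background signal.

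Tnfsf4, which encodes OX40 ligand, a co-stimulatory molecule for T cells, had values of 2.83, 2.97, 3.10 and 3.19 on the WT arrays and of 3.81, 3.82 and 3.78 on the TLR4-/- arrays. The groups did not overlap, with means of 3.02 ± 0.15 (SD, n = 4) and 3.80 ± 0.02 (SD, n = 3). The log2 difference was 0.78 (SE 0.11, limma adjusted p = 0.0236). Both means lie within the background range. In the sham groups Tnfsf4 had means of 3.34 and 3.44, between the I/R groups.

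Mid1, an X-linked gene for a microtubule-associated ubiquitin ligase, had values of 7.13, 7.17, 7.32 and 7.08 on the WT arrays and of 6.30, 6.27 and 6.25 on the TLR4-/- arrays. It was lower on every TLR4-/- array, by 1.87-fold (log2 -0.91, SE 0.12, limma adjusted p = 0.0179). The sham groups differed by nearly the same amount, -0.99, so its genotype difference did not depend detectably on the operation (difference of differences 0.08, 95% interval -0.29 to 0.46). Mid1 was on a list of genes known to vary among C57BL/6 substrains or colonies. G530011O06Rik, which lies 2 measured genes from Mid1 in gene order and was picked out after its values were seen, had a difference of -0.85 after I/R (limma adjusted p = 0.266) and of -1.16 after sham.

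Mns1, which encodes a protein of cilia and sperm flagella, had values of 6.76, 6.23, 6.05 and 6.26 on the WT arrays and of 5.29, 4.92 and 5.38 on the TLR4-/- arrays. The means were 6.33 ± 0.31 (SD, n = 4) and 5.20 ± 0.24 (SD, n = 3), a 2.18-fold difference (log2 -1.13, SE 0.18, limma adjusted p = 0.0416), and the groups did not overlap. In the sham groups both means were 4.46, within the background range. Among the 4 groups the mean of Mns1 was above background only in the 2 I/R groups, and it was the higher in WT.

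**Figure D1:**
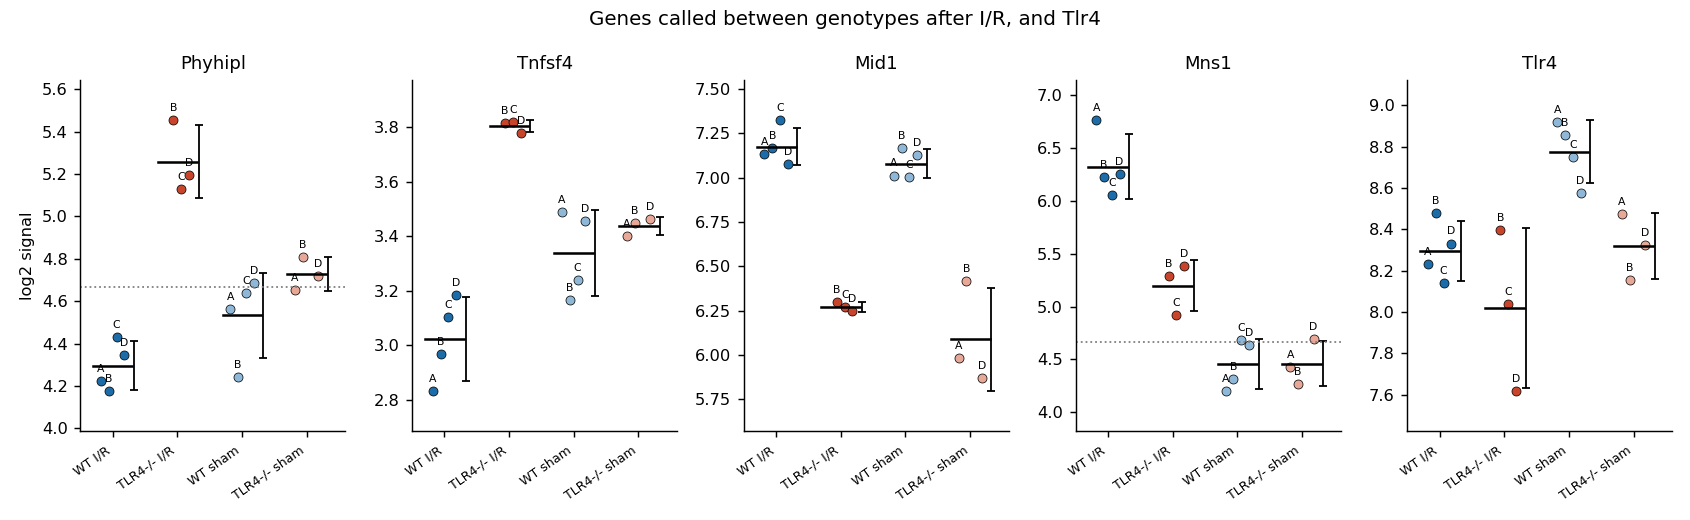
Log2 signal (vertical axes) of the 4 genes called after I/R and of Tlr4, in the 4 groups (horizontal axes); points are arrays with their letters, lines are means, bars are 1 SD, and the dotted line is the background bound of 4.67 where it falls within the axis. Phyhipl and Tnfsf4 are higher on all 3 TLR4-/- I/R arrays than on any WT I/R array, Mid1 is lower in TLR4-/- in both operations, and Tlr4 overlaps between the genotypes after I/R.

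These 4 calls were near the threshold and depended on how the model was set. With only the 7 I/R arrays in the fit no gene passed, and none passed without WT I/R array A, without WT I/R array B, or without any one of TLR4-/- I/R arrays B, C and D. Without WT I/R array C, Phyhipl alone passed. Quantile normalization left Phyhipl alone. Leaving out genes within the background range took Phyhipl and Tnfsf4 out of the test, and of Mid1 and Mns1 only Mid1 then passed. With arrays weighted by quality 7 genes passed, the 4 above with Brca2, Depdc1a and Shcbp1. Each of the 4 kept its direction under every alternative run, with log2 differences between 0.87 and 1.03 for Phyhipl, 0.72 and 0.83 for Tnfsf4, -0.96 and -0.82 for Mid1 and -1.22 and -0.98 for Mns1. In the sham groups the call of Mid1 was lost without WT sham array B and without TLR4-/- sham arrays A or D, while 10 genes passed without WT sham array C.

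The genes next in order of p did not pass the adjustment, and all were lower in TLR4-/- microglia. Depdc1a, a gene of mitotic progression, had values of 5.97, 5.63, 5.26 and 5.51 on the WT arrays and of 4.93, 4.53 and 4.07 on the TLR4-/- arrays (log2 difference -1.09, SE 0.19, limma adjusted p = 0.102). Cd36, a scavenger receptor for oxidised lipid and apoptotic cells, had values of 7.48, 7.46, 7.56 and 7.46 on the WT arrays and of 6.58, 6.84 and 6.66 on the TLR4-/- arrays (-0.80, SE 0.14, limma adjusted p = 0.103). The WT values of Cd36 lay within 0.10 of each other, and the TLR4-/- values were all below them. Shcbp1, a gene of the dividing cell, had a difference of -0.99, Kif20b, a kinesin of cytokinesis, of -0.95, Ccr2, the chemokine receptor of inflammatory monocytes, of -0.79, and Brca2, which repairs DNA by recombination, of -0.72. In each of these 6 genes every TLR4-/- array was below every WT array. The 6 were chosen by their small p on the same arrays, so this separation adds no support. Over all genes this was so for 3.20%, while 6.13% had every TLR4-/- array above every WT array.

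At an unadjusted p of 0.05, 1044 genes were higher (5.24%) and 645 lower (3.24%) in TLR4-/- microglia, and the median difference over all genes was 0.03. The direction followed the signal. Among 7405 genes whose mean over all 14 arrays was within the background range the median difference was 0.10, with 574 higher and 60 lower at that p. Among 5070 genes with a mean of the I/R groups between 6 and 8 it was -0.09, with 74 higher and 371 lower (7.32% lower), and the median of these genes after sham was -0.06. The olfactory receptor genes had a median difference of 0.08 after I/R, and 743 of the 1027 had a positive sign. The split also followed the scaling: with each array centred on its median, 463 of 1506 genes at an unadjusted p of 0.05 were higher, against 1044 of 1689 in the deposited scaling. Of the 100 genes with the smallest p, 52 were lower and 48 higher in TLR4-/- microglia. For 30 of these 48, Phyhipl and Tnfsf4 among them, the WT mean, the lower of the 2 group means, was within the background range. The higher of the 2 group means was within it for 17 of the 48 and for 2 of the 52 lower.

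**Figure D2:**
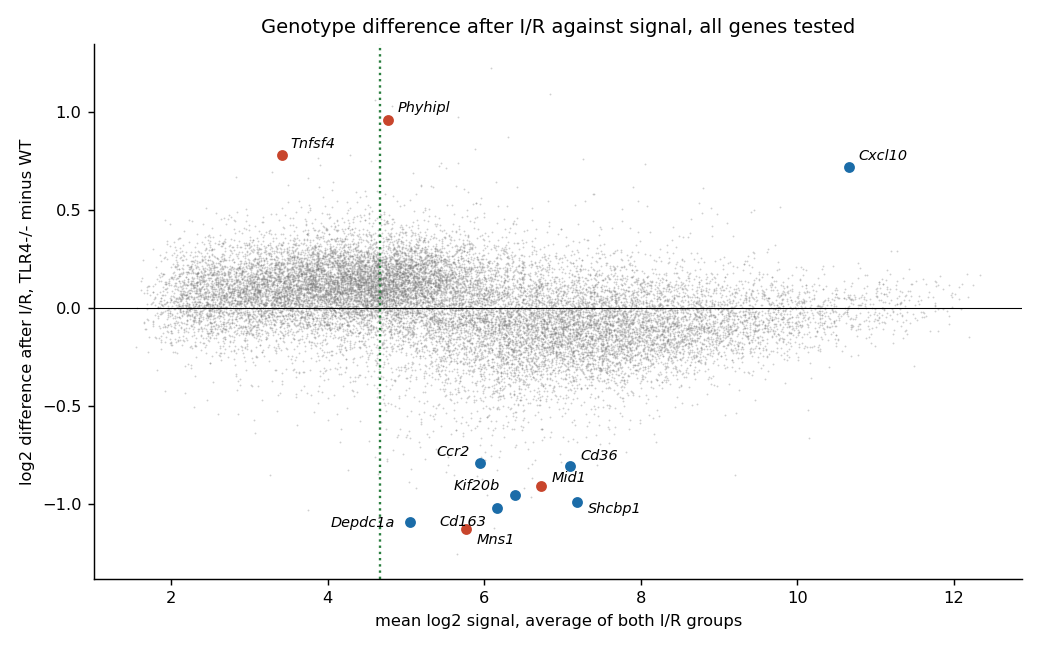
Log2 difference after I/R (TLR4-/- minus WT, vertical axis) against mean log2 signal of the I/R groups (horizontal axis) for 19938 genes; red points are the 4 called genes, blue points are genes discussed in the text that were not called, and the dotted line is the background bound of 4.67. Genes at low signal lie mostly above 0 and genes between 6 and 8 mostly below it. The labelled genes were chosen from the text, and the unlabelled genes Vsig4 (-1.26) and Cpe (1.22) had larger differences.

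Genes of mitosis were the group with the most negative median. All 29 measured members had a negative difference after I/R, from -0.99 (Shcbp1) to -0.24 (Ska1), and the median was -0.54 against 0.03 over all genes. None passed the adjustment. At an unadjusted p of 0.05, 16 of 29 were lower and 0 higher, against 3.24% lower over all genes and 7.32% among genes with a signal between 6 and 8. In 17 of 29 every TLR4-/- array was below every WT array, against 3.20% over all genes. The mean of the list was 8.24, 7.79, 7.77 and 7.89 on WT arrays A to D and 7.43, 7.32 and 7.46 on the TLR4-/- arrays, so the groups did not overlap and WT array A was the highest. Both I/R groups were far above the sham groups, whose arrays lay between 4.60 and 5.15. Separate list means after I/R were not particular to mitosis. The means of the DNA replication, G1 cyclin, sterol synthesis, matrix and substrain lists were also lower on every TLR4-/- array than on any WT array. Those of oligodendrocyte and erythroid markers were higher on every TLR4-/- array.

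The spindle checkpoint kinase Ttk had values of 7.41, 6.91, 6.81 and 6.90 on the WT arrays and of 6.15, 6.15 and 6.34 on the TLR4-/- arrays (log2 difference -0.79, SE 0.15, limma adjusted p = 0.137). Shcbp1 had 7.99, 7.50, 7.56 and 7.68 on the WT arrays and 6.86, 6.38 and 6.84 on the TLR4-/- arrays (limma adjusted p = 0.103). Members of the kinetochore complex that holds microtubules had similar differences, -0.72 for Spc25, -0.75 for Ndc80 and -0.64 for Nuf2, with Ndc80 and Nuf2 picked out after their values were seen. Nuf2 lay between 8.34 and 8.64 on the WT arrays and between 7.83 and 7.86 on the TLR4-/- arrays. The best-known proliferation genes had smaller differences: -0.45 for Mki67, the Ki-67 antigen, -0.39 for Top2a and -0.25 for the mitotic kinase Cdk1, also picked out after their values were seen.

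The median of the mitosis list stayed between -0.58 and -0.43 when single arrays were left out, lowest in size without WT array A. Without TLR4-/- array C, 9 members were lower at an unadjusted p of 0.05 in place of 16, and without WT array A, 11. After sham the median was -0.17, and for the difference between the operations it was -0.38, with 6 of 29 members more negative at an unadjusted p of 0.05 and 0 more positive (1.83% and 2.0% over all genes).

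**Figure D3:**
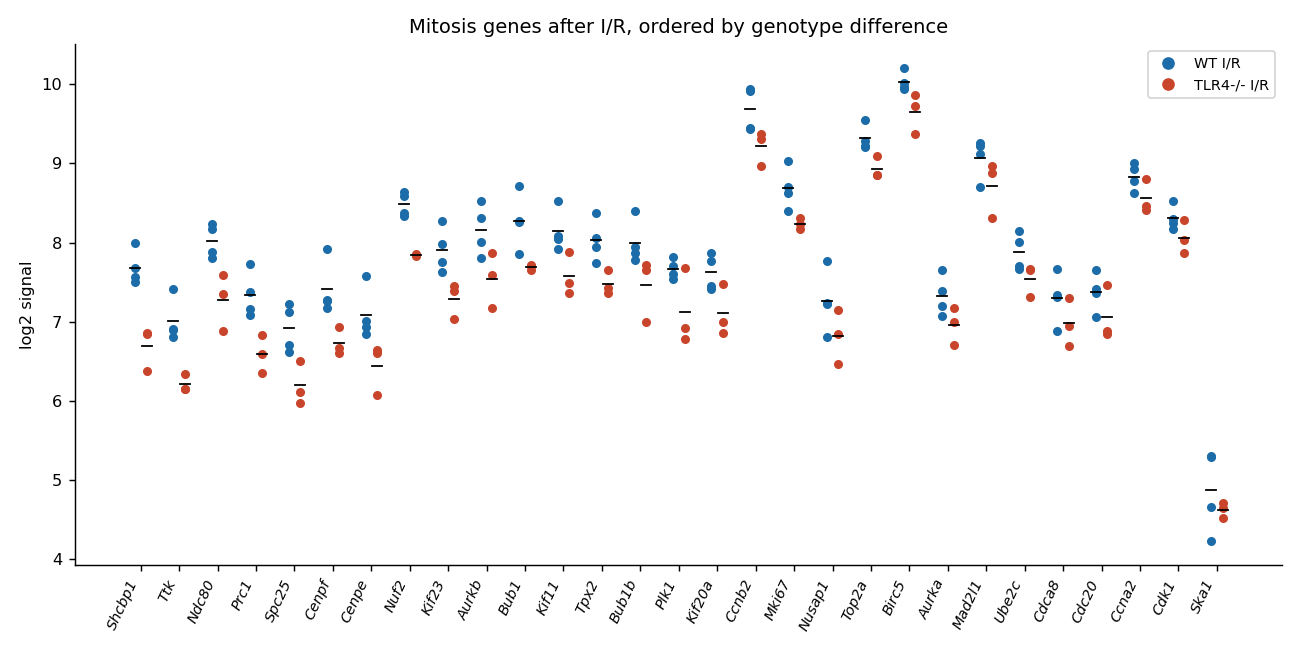
Log2 signal (vertical axis) of the 29 measured mitosis genes (horizontal axis, ordered by genotype difference) on the 4 WT I/R arrays (blue) and the 3 TLR4-/- I/R arrays (red); points are arrays and short lines are means. The TLR4-/- mean is below the WT mean for all 29 genes. For 17 of them every TLR4-/- array is below every WT array, against 3.20% over all genes.

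Genes of DNA replication lay in the same direction with a smaller size. Their median was -0.20, 28 of 32 members had a negative difference, and 5 were lower at an unadjusted p of 0.05 with 0 higher (3.24% lower over all genes, 7.32% at a signal between 6 and 8). The replication ligase Lig1 had a difference of -0.46, the primase subunit Prim1 of -0.46 and the polymerase subunit Pola1 of -0.39 (limma adjusted p between 0.504 and 0.566). The G1 cyclins, their kinases and inhibitors had a median of -0.06 with 1 of 20 lower, which was E2f8, a repressor active in S phase and later (-0.48, limma adjusted p = 0.477). Cdkn2d (-0.36) and E2f2 (-0.24) came next in that list.

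Markers of border-associated macrophages and of monocytes had negative medians after both operations. Of 14 genes of border-associated macrophages, the macrophages of the meninges and vessel walls, 13 had a negative difference, and the median was -0.45. At an unadjusted p of 0.05, 6 were lower and 1 higher, against 3.24% lower and 5.24% higher over all genes, and none passed the adjustment. After sham all 14 were negative with a median of -0.21, and 2 were lower at that p (473 of 19938 over all genes). For the difference between the operations 0 members were more negative and 1 was more positive at that p, so a dependence on the operation was not shown. Cd163, the haemoglobin scavenger receptor, had values of 6.47, 6.72, 6.81 and 6.69 on the WT arrays and of 6.05, 5.82 and 5.10 on the TLR4-/- arrays (log2 difference -1.02, SE 0.25, limma adjusted p = 0.379), and the groups did not overlap. In 2 of the 14 markers every TLR4-/- array was below every WT array (3.20% over all genes). Ms4a7 had a difference of -0.63. Cd209a, a lectin shared with dendritic cells, went the other way with 0.81, and its arrays overlapped, with WT values of 4.58, 5.57, 5.98 and 5.77 and TLR4-/- values of 7.04, 6.37 and 5.46.

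The list mean of these markers was 7.03, 7.11, 7.54 and 7.36 on the WT arrays and 7.15, 6.79 and 6.67 on the TLR4-/- arrays, so TLR4-/- array B lay among the WT arrays. The count of lower members moved with single arrays, to 2 without WT array C or TLR4-/- array C and to 3 without WT array D, and it was 10 with arrays centred on their medians and 3 after quantile normalization. All 14 markers had a mean above background, and the mannose receptor Mrc1 lay between 8.49 and 9.75 on the 7 arrays. The part of such cells in the results for other genes was not tested.

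Of 17 monocyte markers, 12 had a negative difference, the median was -0.26, and 4 were lower at an unadjusted p of 0.05 with 0 higher (3.24% lower over all genes). The median was -0.14 without WT array C and -0.15 without TLR4-/- array C. After sham 16 of 17 were negative, with a median of -0.07. Ccr2 had values of 6.15, 6.13, 6.69 and 6.41 on the WT arrays and of 5.69, 5.49 and 5.48 on the TLR4-/- arrays (log2 difference -0.79, SE 0.15, limma adjusted p = 0.126). Fn1, which encodes fibronectin, had values of 10.72, 10.05, 10.67 and 10.48 against 9.42, 9.99 and 10.06 (-0.66, limma adjusted p = 0.444), and Cd44, a hyaluronan receptor, a difference of -0.36. Fn1 had a difference of -0.53 between the sham groups. The list mean was 5.99, 5.94, 6.38 and 6.19 on the WT arrays and 5.96, 5.83 and 5.95 on the TLR4-/- arrays, which overlapped.

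Complement and phagocytosis genes had a median of 0.01, and of 21 members Cd36 alone was lower at an unadjusted p of 0.05. The scavenger receptor Stab1 had a difference of -0.25 and complement factor Cfb one of 0.39. Genes of disease-associated microglia had a median of 0.04, with 3 of 23 lower and 0 higher at that p (3.24% and 5.24% over all genes). The 3 were the growth factor Igf1 (-0.74, limma adjusted p = 0.444), the lipase Lpl (-0.44) and Gpnmb (-0.46), with overlapping arrays in each. In 4 of the 23 every TLR4-/- array was above every WT array, and in 0 below (6.13% and 3.20% over all genes). MHC class II genes had a median of -0.18 over 8 members, and of -0.27 after sham, where all 8 were negative. The I/R median was -0.05 without TLR4-/- array B, -0.09 without WT array B, -0.30 without WT array A and -0.37 without TLR4-/- array D. H2-Aa had values of 6.58, 8.47, 8.40 and 8.29 on the WT arrays and of 6.83, 7.34 and 7.57 on the TLR4-/- arrays, so WT array A lay below all TLR4-/- arrays while the other WT arrays lay above them. H2-Eb1 (-0.73) and the invariant chain Cd74 (-0.57) had the same low WT array A.

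Type I interferon-stimulated genes, the antiviral genes that interferon switches on, lay near the WT level in TLR4-/- microglia after I/R. Of 47 measured members 43 had a positive difference, and the median was 0.17. None passed the adjustment, 2 were higher at an unadjusted p of 0.05 and 0 lower (5.24% higher over all genes). The list mean was 7.56, 8.18, 8.22 and 8.43 on WT arrays A to D and 8.44, 8.25 and 8.27 on the TLR4-/- arrays. Without WT array A, the lowest of these, the median of the list was -0.0016.

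The 2 members were Cxcl10 and Rsad2. Cxcl10, a chemokine that attracts activated T cells, had values of 9.98, 9.82, 10.64 and 10.77 on the WT arrays and of 11.08, 11.06 and 10.93 on the TLR4-/- arrays, which were all higher (log2 difference 0.72, SE 0.22, limma adjusted p = 0.477). Rsad2, the antiviral enzyme viperin, had WT values of 6.76, 7.79, 8.22 and 7.96 and TLR4-/- values of 8.66, 8.83 and 7.77, with overlap (0.74, limma adjusted p = 0.569). Parp12 had a difference of 0.37. In 2 of the 47 members every TLR4-/- array was above every WT array (6.13% over all genes).

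The sham groups differed in the opposite direction, with a median of -0.36 and 18 of 47 members lower at an unadjusted p of 0.05. At that p 0 members were higher after sham, and of all 19938 genes 473 were lower and 572 higher. The genotype difference after I/R was more positive than after sham at an unadjusted p of 0.05 for 20 of 47 members and more negative for 0 (2.0% and 1.83% over all genes), with a median difference of 0.53. No gene of the whole table passed the adjustment for this comparison (0.00%, 0 of 19938 in limma, with 762 at an unadjusted p of 0.05). Without WT sham array C, 1 gene passed, Ifitm3, which is itself induced by interferon. Rtp4, an interferon-induced chaperone, had means of 9.48 ± 0.52 (WT, n = 4) and 9.78 ± 0.24 (TLR4-/-, n = 3) after I/R and of 7.71 ± 0.47 and 6.06 ± 0.43 (SD) after sham. Ifit3, which binds the ends of foreign RNA with its partners, had 9.19 ± 0.45 and 9.70 ± 0.12 after I/R and 7.03 ± 0.50 and 5.61 ± 0.39 (SD) after sham. The difference of differences was 1.95 for Rtp4 and 1.92 for Ifit3 (limma adjusted p = 0.383 for each). Most of it lay in the sham groups for both genes. The count of 20 members became 14 without WT I/R array A and lay between 16 and 24 without any other single array.

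**Figure D4:**
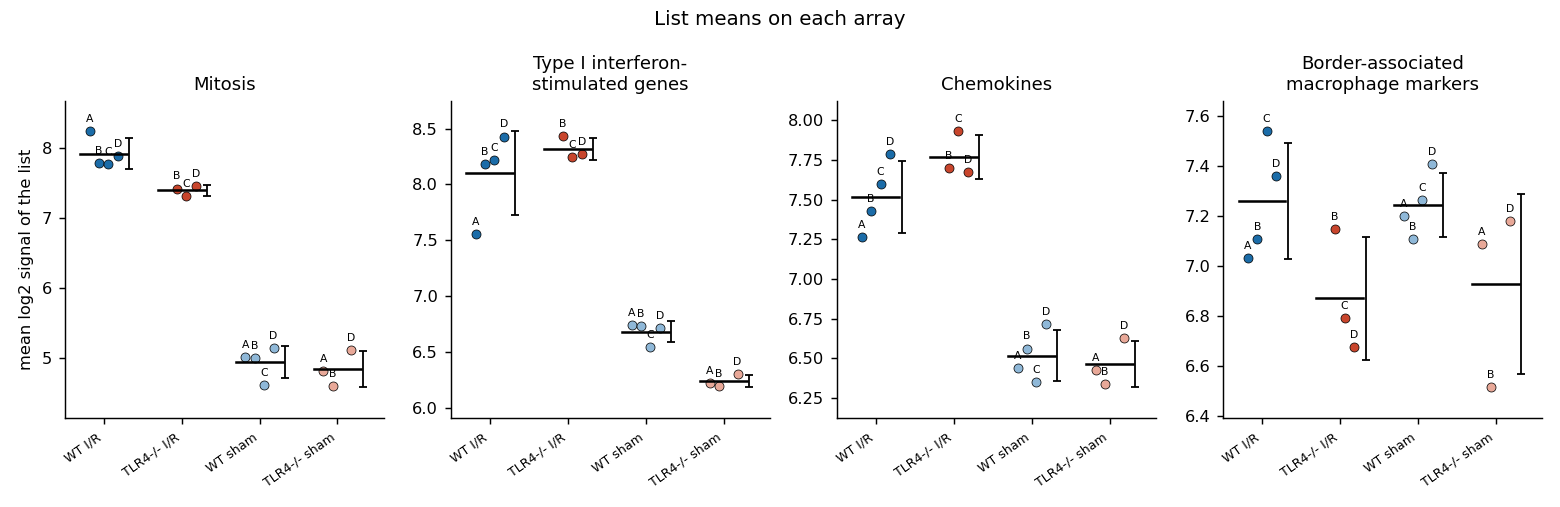
Mean log2 signal of the measured members (vertical axes) of 4 gene lists on each array of the 4 groups (horizontal axes); points are arrays with their letters, lines are group means and bars are 1 SD. The mitosis mean is lower on all 3 TLR4-/- I/R arrays than on any WT I/R array, as were the means of other lists named in the text. The interferon mean overlaps after I/R with WT array A lowest, and the macrophage mean of TLR4-/- array B lies among the WT arrays.

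Chemokines had the second highest median, 0.26, after astrocyte markers. Of 18 members 15 had a positive difference, as did 11143 of all 19938 genes. At an unadjusted p of 0.05, 2 were higher and 0 lower (5.24% higher over all genes), and none passed. Cxcl11, which shares its receptor with Cxcl10, had a difference of 0.59 (limma adjusted p = 0.548) and the neutrophil attractant Cxcl1 one of 0.31. The list mean was 7.26, 7.43, 7.60 and 7.79 on the WT arrays and 7.70, 7.93 and 7.67 on the TLR4-/- arrays, which overlapped with WT array D. The median of the list was 0.11 without TLR4-/- array C, 0.13 without WT array A and 0.16 without WT array B. Inflammatory cytokines had a median of 0.16, with 2 of 20 higher at that p, Lif (0.42) and Il27 (0.38), and 0 lower (5.24% and 3.24% over all genes). That median was 0.10 without WT array B and 0.25 without TLR4-/- array B. Il1b, which encodes interleukin-1 beta, had values of 8.35, 7.67, 8.87 and 9.04 on the WT arrays and of 8.60, 9.41 and 9.29 on the TLR4-/- arrays (0.62, SE 0.31, limma adjusted p = 0.609), with overlap. In NF-kB subunits, inhibitors and targets the median was 0.10, and of 17 members Relb alone passed an unadjusted p of 0.05, with a difference of 0.24. Nfkb2 had 0.24 and Birc3 0.15. Without WT array B the NF-kB median was -0.05.

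Tlr4 itself did not pass between the genotypes after I/R. It is measured by 1 row of the array, with values of 8.23, 8.48, 8.14 and 8.33 on the WT arrays and of 8.40, 8.04 and 7.62 on the TLR4-/- arrays, which overlapped. The log2 difference was -0.28 (SE 0.16, limma adjusted p = 0.634), and an exact two-sided permutation test over the 35 splits of the 7 arrays gave p = 0.286, where the smallest p that this design allows is 0.0571. The difference was -0.47 without TLR4-/- array B and -0.08 without TLR4-/- array D. Which part of the gene the mutant lacks and where the probes lie is not stated in the labels, and the row is therefore no check of genotype.

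None of the 23 measured genes of the TLR4 receptor complex and its pathway passed at either threshold, and their median was -0.05. The co-receptors and related surface molecules were Ly96 (0.30), Cd14 (-0.01), Cd180 (0.10), Ly86 (0.14) and the lipopolysaccharide carrier Lbp (-0.07). Among the adaptors, Myd88 had a difference of 0.16, Tirap of -0.39, Ticam1, which encodes TRIF, of -0.09 and Ticam2, which encodes TRAM, of -0.03. The TLR4-/- arrays were all below the WT arrays for Tirap and all above them for Ly86. The kinases and ubiquitin ligases downstream, Irak1, Irak2, Irak3, Traf6, Map3k7, Tab1, Tab2, Ikbkb, Ikbkg, Ikbke, Tbk1 and Rnf216, lay between -0.20 and 0.02. Hmgb1, a nuclear protein that acts as a damage signal when released, had a difference of -0.46 (limma adjusted p = 0.657), with all TLR4-/- arrays below the WT arrays. Of the 23 genes, 1 had every TLR4-/- array above every WT array and 2 had every one below (6.13% and 3.20% over all genes). Of 10 other Toll-like receptors 1 was lower at an unadjusted p of 0.05 (3.24% over all genes), Tlr8 (-0.71), while Tlr2 had 0.19 and Tlr12 -0.26.

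Genes beside Tlr4 in gene order were described as a group because they lie on the same chromosome segment as the targeted gene. Of the 50 measured genes within 25 on either side, 7 were higher and 2 lower at an unadjusted p of 0.05 (5.24% and 3.24% over all genes), none passed, and the median was 0.08. Of the 50, 27 had a mean above background, and the median over all genes within the background range was 0.10. Zdhhc21, a palmitoyl transferase, had values of 6.92, 6.86, 7.15 and 7.14 on the WT arrays and of 7.50, 7.73 and 7.47 on the TLR4-/- arrays (log2 difference 0.55, SE 0.15, limma adjusted p = 0.444), which were all higher, and a difference of 0.43 after sham. In 5 of the 50 every TLR4-/- array was above every WT array after I/R, and in 1 below (6.13% and 3.20% over all genes). Orm1, an acute-phase protein gene, had 0.39 after I/R and 0.28 after sham, and Tnfsf15 had 0.37 and 0.25. Of 8 genes known to vary among C57BL/6 substrains or colonies, 3 were lower at an unadjusted p of 0.05 (3.24% over all genes): Mid1, Entpd4 (-0.68 after I/R and -0.97 after sham) and Nnt (-0.37 and -0.11). All TLR4-/- I/R arrays lay below all WT I/R arrays for 3 of the 8, against 3.20% over all genes. They were the same 3 genes, and their small p and their separate arrays come from the same values. This list, like the others, was chosen with earlier results of these data known.

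Markers of neural cells had positive medians, 0.27 for astrocytes (11 genes), 0.18 for oligodendrocytes (11) and 0.17 for neurons (12), of which 6, 8 and 3 had a mean above background. The astrocyte median was 0.12 without WT array A and 0.14 without TLR4-/- array D, and the neuron median was 0.10 without TLR4-/- array B and 0.11 without WT array A. The glutamate transporter Slc1a2 of astrocytes had WT values of 4.32, 5.93, 4.52 and 5.52 and TLR4-/- values of 6.44, 5.30 and 5.71 (log2 difference 0.74, limma adjusted p = 0.586). Gfap had a difference of 0.49, and the gap junction gene Gja1 one of -0.76. The astrocyte mean was 5.42, 5.93, 5.66 and 5.65 on the WT arrays and 5.92, 5.63 and 6.08 on the TLR4-/- arrays, so WT array B and TLR4-/- arrays B and D were high. For oligodendrocytes, Mal had 0.30, Olig2 0.33 and the myelin gene Mobp 0.46, and for neurons Slc17a7, the vesicular glutamate transporter, had 0.53, Gad2 0.38 and Gad1 0.22. Gad2 and Gad1 lay within the background range in both groups, and the median over all genes within that range was 0.10. The part of neural RNA in the results for other genes was not tested.

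Over all genes, 11 had a log2 difference of at least 1 in size. Beside Mns1, Depdc1a and Cd163 these were picked out for size alone and none passed. Cpe (1.22), which processes neuropeptides, Sparcl1 (1.09), an astrocyte protein, and Gpm6a (1.01), a neuronal membrane protein, were high on the arrays just named. Cpe had values of 4.87, 6.57, 4.73 and 5.74 on the WT arrays and of 7.38, 5.39 and 7.34 on the TLR4-/- arrays. Vsig4 (-1.26), a complement receptor of tissue macrophages, had WT values of 6.65, 5.05, 6.88 and 6.52 and TLR4-/- values of 6.09, 4.47 and 4.50. Saa3 (-1.12), an acute-phase protein gene, Emb (-1.03), 1700084J12Rik (1.03) and Gm13199 (1.06) made up the rest. In Cpe, Sparcl1, Gpm6a, Vsig4, Saa3, Emb and 1700084J12Rik the arrays of the genotypes overlapped.

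The remaining lists had medians between -0.10 and 0.12, each with 0 to 3 members past an unadjusted p of 0.05. Over all genes 5.24% were higher and 3.24% lower at that p. Within the homeostatic list Cst3 (0.12), Rhob (0.19) and the fructose transporter Slc2a5 (-0.27) had the smallest p, and no member passed 0.05 unadjusted. Immediate-early and heat-shock genes had 2 members higher, Jun (0.32) and Jund (0.38), and 1 lower, Egr2 (-0.60), and the unfolded protein response list had 1 lower, the asparagine synthetase gene Asns (-0.61). Interferon-gamma GTPases had 1 of 12 lower, Gbp3 (-0.33), beside Iigp1 (0.48) and Irgm1 (0.36), and sterol synthesis had Lss (0.31) higher and Cyp51 (-0.33) and Sqle (-0.35) lower. Among markers of blood and vessel cells, the neutrophil receptor Cxcr2 (-0.57), the lymphocyte factor Eomes (0.28) and the endothelial receptor Kdr (0.42) passed 0.05 unadjusted, and Cxcr2 and Eomes lay within the background range in both groups.

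The smallest p-values of the quieter lists belonged to genes with small differences. The lysosomal proteases Ctsb (0.14) and Ctss (0.13) and the membrane protein Lamp1 (0.12) were higher on every TLR4-/- array than on any WT array, and so was B2m (0.20), the light chain of MHC class I. This was so for 4 of 23 lysosome genes and 2 of 14 MHC class I genes, against 6.13% over all genes. None of the lysosome, glycolysis, oxidative phosphorylation, MHC class I, type I interferon pathway, B cell and erythroid lists had a member past an unadjusted p of 0.05. In these, Nlrc5 had a difference of 0.27, Tap1 of -0.24, Hk2 of -0.31, Pfkfb3 of -0.19, Pfkp of -0.23, Atp5a1 of -0.16, Ndufb3 of -0.18 and Ndufs1 of -0.22. Of the interferon pathway, the DNA sensor Cgas had 0.19, the adaptor Mavs -0.22 and the receptor kinase Tyk2 -0.26. Of the blood cell markers, Blk had 0.06, Fcmr -0.03, Ms4a1 -0.13, Alas2 0.25, Epb42 0.12, Slc4a1 0.10, Cd8a 0.26, Nkg7 -0.26, Csf3r -0.21 and Mmp9 0.26. The quinone reductase Nqo1 (0.46) of the NRF2 list and the protease inhibitor Timp1 (0.27) and Fn1 of the matrix list passed 0.05 unadjusted, while Keap1 (0.23), Gclm (-0.20), Vcan (-0.14), Ern1 (-0.13), Dnajb9 (0.24), Cldn5 (0.29) and Slco1a4 (0.23) did not. Nqo1 and Timp1 lay within the background range in both groups.

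**Figure D5:**
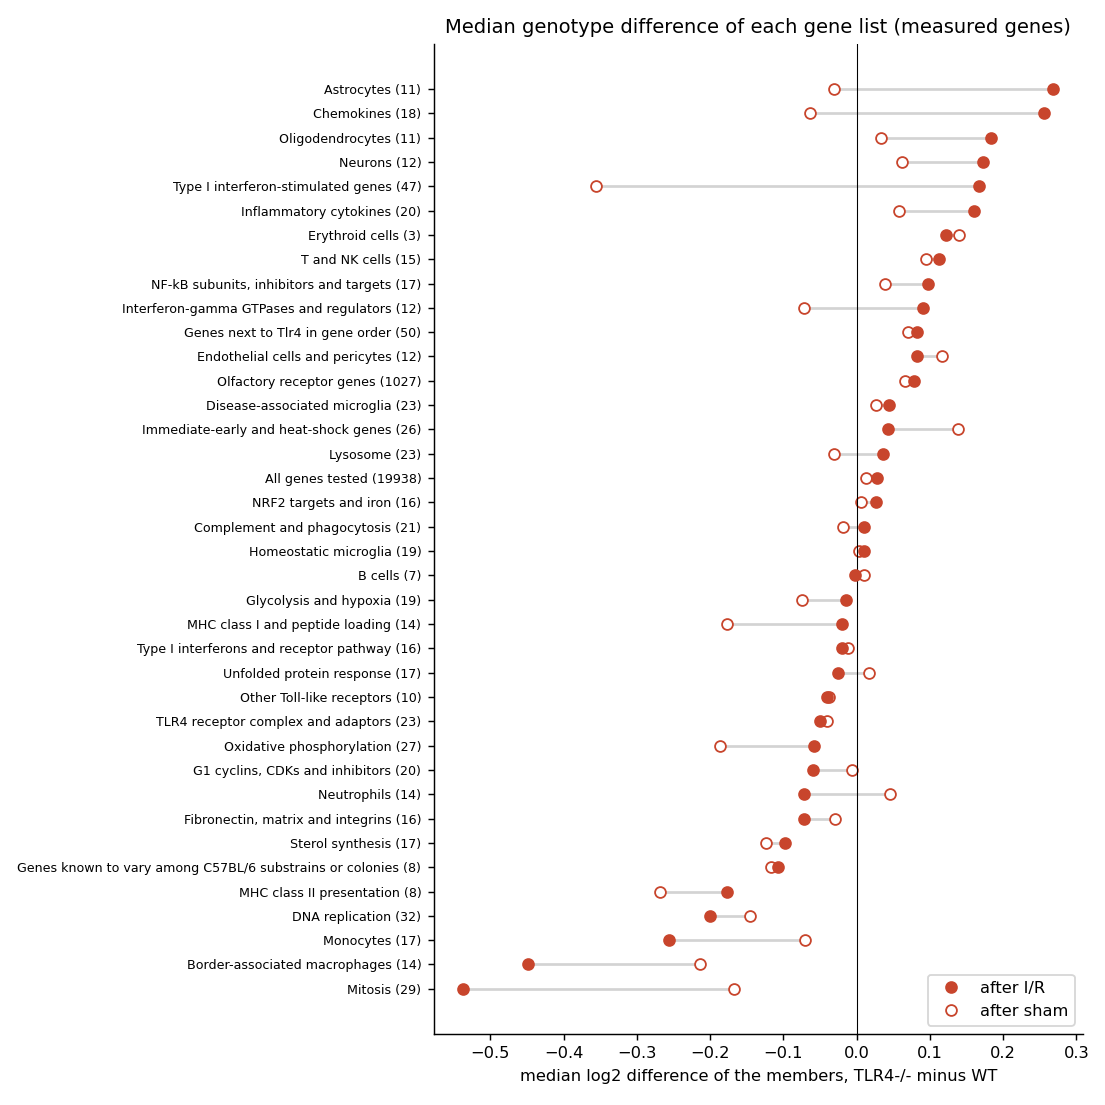
Median log2 difference of the measured members (horizontal axis, TLR4-/- minus WT) of each gene list (vertical axis, number of measured genes in brackets) after I/R (filled) and after sham (open). Mitosis (-0.54) and border-associated macrophage markers (-0.45) lie lowest after I/R, and type I interferon-stimulated genes move from -0.36 after sham to 0.17 after I/R.

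The 10 genes whose genotype difference depended most on the operation, by p, all had limma adjusted p-values of 0.383 to 0.510. Ttk had differences of -0.79 after I/R and 0.43 after sham, which is -1.23 between them. Esco2 (-1.08), which establishes sister chromatid cohesion, Brca2 (-0.98), Kif3a (-0.85), a motor of cilia, Zfp599 (-1.52) and 1700010I14Rik (-1.03) were also more negative after I/R. Rtp4, Ifit3, Cdc26 (1.00), a subunit of the mitotic ubiquitin ligase, and Tada2a (0.80), of a histone acetyl transferase complex, were more positive. Tada2a had differences of 0.29 after I/R and -0.51 after sham. Mns1 had a difference of differences of -1.13 and Phyhipl and Tnfsf4 of 0.77 and 0.68, with intervals of -1.66 to -0.60, 0.39 to 1.15 and 0.34 to 1.02 (95%, unadjusted for the number of genes), and limma adjusted p-values of 0.510, 0.616 and 0.616.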

How the data were processed

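Total RNA of sorted microglia from 4 groups of mice (14 arrays) was measured on Affymetrix Mouse Gene 1.0 ST arrays. The authors deposited log2 signal values made with the oligo package and RMA, which corrects background and normalizes between arrays, per the submitters' processing notes, with versions not given in the sources used here. Of 35556 rows, 21789 had 1 gene symbol in the platform annotation, 1621 several and 12146 none. Symbols of 21698 of the first were updated through RefSeq gene IDs, which gave 19938 genes. The 999 genes with more than 1 row were represented by the row of highest mean signal over all arrays.

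Group means were fitted to all 14 arrays, which share 1 estimate of the spread, with limma 3.58.1 in R 4.3.3 (lmFit, eBayes). The contrasts were TLR4-/- minus WT after I/R, the same after sham, and their difference, with Benjamini-Hochberg adjustment over 19938 genes. Arrays give no read depth, and their number limits the precision. The code was tested on simulated data. Named genes were called genes, the 10 smallest p-values of each of the I/R and difference contrasts, in each list the called members or the 3 smallest p-values, and Tlr4 with its pathway. The members and the 35 lists were chosen with earlier results of these data known. Alternatives covered the arrays in the fit, variance settings, array weights, dim genes, scaling, row choice, a replicate block and each array left out.

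Promoters came from the RefSeq table of GRCm38.p6, matched by symbol.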

Additional observations from a re-analysis of the deposited data

Results flagged for a closer look

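In 12 of 192 sets of 4 WT I/R values tested with Dixon's criterion, 1 array lay apart from the other 3. Chance alone gives about 1 in 20. WT array A was the array apart for 6 genes. Its value was 6.58 for H2-Aa against 8.29 to 8.47 on the others, 8.48 for Myd88 against 8.70 to 8.73, 7.41 for Ttk against 6.81 to 6.91, 6.96 for Jund against 6.66 to 6.71, and 4.43 for Gad1 against 4.31 to 4.32. It was also apart for Nkg7, a cytotoxic cell gene within the background range, at 4.40 against 3.89 to 3.91. WT array B was apart in 3 list means: 6.93 for NF-kB genes against 7.20 to 7.22, 7.72 for immediate-early and heat-shock genes against 8.15 to 8.23, and 10.79 for homeostatic microglial genes against 10.56 to 10.59. WT array D was low for Ern1, at 6.12 against 6.39 to 6.44, and for Nqo1, at 2.99 against 3.35 to 3.42. WT array C was high for Slc4a1, at 5.11 against 4.91 to 4.93. The groups of 3 TLR4-/- arrays were not examined with this criterion.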

How the results depend on the processing

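The count of 4 genes called after I/R became 0 with only the compared groups in the fit, 7 with array weights, 1 without dim genes, 1 after quantile normalization and 1 with all rows tested, where fewer or more features enter the adjustment, and it ranged from 0 to 5 with single arrays left out. The count of 1 after sham became 0 with only the compared groups and 2 with trend and robust settings, array weights or all rows, and ranged from 0 to 10 with single arrays left out. The count of 0 for the difference became 1 without WT sham array C and could not be fitted with only 1 operation's arrays. Phyhipl and Tnfsf4 are dim genes and were not tested in the run without these. Apart from the array left out or the features tested, the cause of these changes was not tested.

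The replicate letters were used as a block although the labels do not say that a letter pairs animals. Deviations of same-letter arrays correlated at -0.04 to 0.09 between the I/R groups and at -0.10 to 0.28 between any groups, with WT sham array D and TLR4-/- I/R array D highest. Not every pair was positive, and the letters were not taken as pairs. With the replicate block 0 genes were called after I/R and 2 after sham.

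Of 156 genes named, 140 kept their sign under every alternative run, and 16 uncalled genes near 0 did not. After quantile normalization the difference was -0.010 for Blk, 0.015 for Cd14, 0.033 for Rnf216, 0.044 for Ticam2 and 0.068 for Traf6. With array weights it was 0.056 for Cd14, 0.011 for Fcmr, -0.085 for Irak1 and -0.0036 for Tab1. With arrays centred on their medians, which moved the median of all genes by 0.0557, it was -0.032 for Irak1, -0.039 for Irak3 and -0.036 for Tab1, and with the replicate block it was -0.036 for Irak3. With single arrays left out, the difference ran for Blk from -0.037 to 0.13, Cd14 from -0.20 to 0.27, Fcmr from -0.12 to 0.042, Ikbke from -0.090 to 0.042, Irak1 from -0.12 to 0.17, Irak2 from -0.30 to 0.0025, Irak3 from -0.28 to 0.30, Lbp from -0.15 to 0.019, Mavs from -0.35 to 0.016, Myd88 from -0.011 to 0.25, Rnf216 from -0.12 to 0.011, Tab1 from -0.072 to 0.098, Tab2 from -0.33 to 0.010, Ticam1 from -0.16 to 0.023 and Traf6 from -0.14 to 0.093. With 3 arrays in a group, and with signal near background for 7405 genes, small differences could not be resolved.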

Other observations

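Among all 35556 rows, 1 passed an adjusted p of 0.05 in limma after I/R, row 10344354, which has no gene in the annotation used. Its values were 3.52, 3.02, 3.19 and 3.04 on the WT arrays and 4.35, 4.38 and 4.57 on the TLR4-/- arrays (log2 difference 1.24, SE 0.14, limma adjusted p = 0.037), within the background range. The rows that hold Isg15, Ly6c2 and Cdkn1a carry several symbols and were not analysed here as genes.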
